A study of Mus musculus with 16 samples.

Results

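The genes described here encode enzymes and membrane proteins of the lysosome, with a transcriptional regulator of lysosomal genes and a secreted partner of the enzymes. A list of 38 genes was matched by symbol to the array annotation, and each gene was read from the brightest of its probe sets that carry a single symbol. Of the 38, 37 had such a probe set, among 22180 genes with one, and Glb1 is not analysed here. All 37 were among the 13453 genes bright enough to be tested, although Tfeb, at a mean of 3.95 on the log2 scale, lay just above the minimum of 3.905.

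The cells were grown out of the coronal suture, a growth site of the skull vault, of C57BL6 mice that were wild type or Twist1+/-, heterozygous for the mesenchymal transcription factor Twist1. All were kept in DMEM with serum and antibiotics, as control cultures or with thyroxine (concentration in mol per liter, log10: -6), and harvested after 3 or 7 days. Cells of each genotype and sex, taken from 2 litters, made up 1 culture, so there were 4 cultures, and each gave 1 array per medium and day, 16 in all in 8 groups of 2. Wild-type control cells served as the reference for genotype and untreated cells for thyroxine. Neither the age of the mice nor the altered part of Twist1 is stated in the labels. The number of arrays limits the precision, and p-values measure the spread between pairs of arrays, which may be technical in part, not the spread between animals.

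Lysosomes are acidic organelles in which proteases, glycosidases, sulfatases and lipases break down material taken up from outside or delivered by autophagy. Most of these hydrolases are made in nearly all cells, and many are carried to the lysosome by mannose 6-phosphate receptors. Macrophages are rich in lysosomes and make some lysosomal proteins, such as cathepsin S and Cd68, at far higher levels than connective tissue cells. The transcription factor TFEB binds a palindromic site, known as the CLEAR element, near the start of many lysosomal genes.

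Because that element is known from many lysosomal genes, the promoters of the 38 listed genes were searched for it. The RefSeq table for GRCm38.p6 was used, from 250 bases before to 50 after each gene start, on both strands. Promoters of 33 of the 38 genes were found. The letters TCACGTGA, the core of the CLEAR element, occurred in 4 of the 33 genes (12.1%). The share was 1.12% of the 27025 genes searched in the same way. The stretches around it in those 4 genes are printed in lower case with the match in capitals. They are Ctsd (cathepsin D, chr7:142387907-142387938, minus strand), Ctsa (cathepsin A, chr2:164833748-164833796, plus strand), Gla (alpha-galactosidase A, chrX:134601181-134601245, minus strand) and Mcoln1 (the cation channel mucolipin 1, chr8:3500461-3500492, plus strand).
Ctsd: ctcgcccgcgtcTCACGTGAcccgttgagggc
Ctsa: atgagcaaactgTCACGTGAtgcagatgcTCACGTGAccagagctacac
Gla: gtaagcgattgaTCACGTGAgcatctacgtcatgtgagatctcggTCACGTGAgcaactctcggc
Mcoln1: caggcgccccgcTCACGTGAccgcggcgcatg

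The shorter letters CACGTG, which lie inside TCACGTGA, occurred in 11 of the 33 genes (33.3%), against 8.09% of all genes searched. The promoter of Lamp1, a membrane glycoprotein that coats the lysosome, is shown because it holds this match 4 times (chr8:13159088-13159160, plus strand).
Lamp1: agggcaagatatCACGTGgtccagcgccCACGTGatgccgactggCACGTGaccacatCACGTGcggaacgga

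Another pair of motifs was searched because both factor families act in macrophages. GAGGAAGT holds letters of an ETS-type site of the kind bound by the myeloid factor PU.1. It occurred in 4 of the 33 genes (12.1%), against 3.69% of all genes searched, and these were Ctsc, Ctss, Gla and Gusb. In Ctss (cathepsin S, chr3:95526772-95526803, plus strand) and Ctsc (cathepsin C, chr7:88277922-88277953, plus strand) it was read on the opposite strand and so appears as ACTTCCTC. TGACTCA, an AP-1 type site, occurred in 4 of 33 genes (12.1%), against 5.95% of all genes searched. In Cd68 (chr11:69666176-69666331, minus strand) it appears at 2 places as TGAGTCA.
Ctss: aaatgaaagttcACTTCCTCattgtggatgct
Ctsc: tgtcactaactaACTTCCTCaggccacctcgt
Cd68: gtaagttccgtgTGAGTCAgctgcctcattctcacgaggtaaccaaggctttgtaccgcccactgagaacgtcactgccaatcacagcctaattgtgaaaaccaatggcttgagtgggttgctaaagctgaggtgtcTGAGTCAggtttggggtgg
These matches describe letters and do not show that a factor binds there.

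All levels below are log2 values per probe set, on which a difference of 1 stands for a doubling. One culture stood apart from the others before any comparison. At 3 days the mean of 18 macrophage markers in the wild-type male culture was 9.37 to 9.42, against 7.65 to 8.46 in the other 6 arrays of that day, and the mean of 13 stromal and osteoblast markers was 7.97 to 8.14, against 9.0 to 9.29. By 7 days the macrophage markers had come to 9.46 to 9.78 in that culture and 9.38 to 9.63 in the others, but the stromal and osteoblast markers still differed, at 7.84 to 8.09 against 8.89 to 9.23. Stromal markers, which fit the labelled suture cells, were therefore present in every array, together with macrophage markers. Endothelial markers had means of 3.76 to 4.13 and neutrophil and lymphocyte markers means of 2.89 to 3.17, near or below the minimum brightness. Twist1 itself in control medium was at 7.34 and 6.51 at 3 and 7 days in the Twist1+/- female culture, 6.94 and 7.55 in the Twist1+/- male culture, 7.70 and 7.36 in the wild-type female culture and 6.35 and 6.07 in the wild-type male culture. Twist1+/- minus wild type was 0.22 ± 0.34 (SE, limma adjusted p = 0.943) and turned to -0.61 ± 0.23 (adjusted p = 0.314) without the wild-type male culture. Its level thus did not check the genotype labels, and whether its probes lie in the altered part is not stated. Some of the counts of calls, and some of the values that the wild-type male culture moves, are also given without it.

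From 3 to 7 days in culture, the lysosomal genes that were called all changed in one direction. Of the 37 genes, 25 rose and 0 fell in the fit over all 8 pairs of arrays, each pair being a culture in a medium at both days (limma, Benjamini-Hochberg adjusted p under 0.05 over all genes). Among all genes tested, 10.9% rose and 9.8% fell, 20.7% in all. The control and thyroxine pairs of a culture come from the same cells, so the 8 pairs are not 8 independent replicates. The count with the media averaged within a culture is lower and is given with the other settings at the end. The median change of the 37 was 0.28 on the log2 scale, against -0.02 for all genes. Cd68 and Ctss changed most, and they changed about as much as the macrophage receptor Adgre1, while the common hydrolases changed by less. In these bulk samples a larger share of macrophages and more RNA of these genes per macrophage cannot be told apart. When the wild-type male culture was left out, 23 of the 37 rose and 0 fell, against 12% of all genes rising and 14.1% falling.

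**Figure D1:**
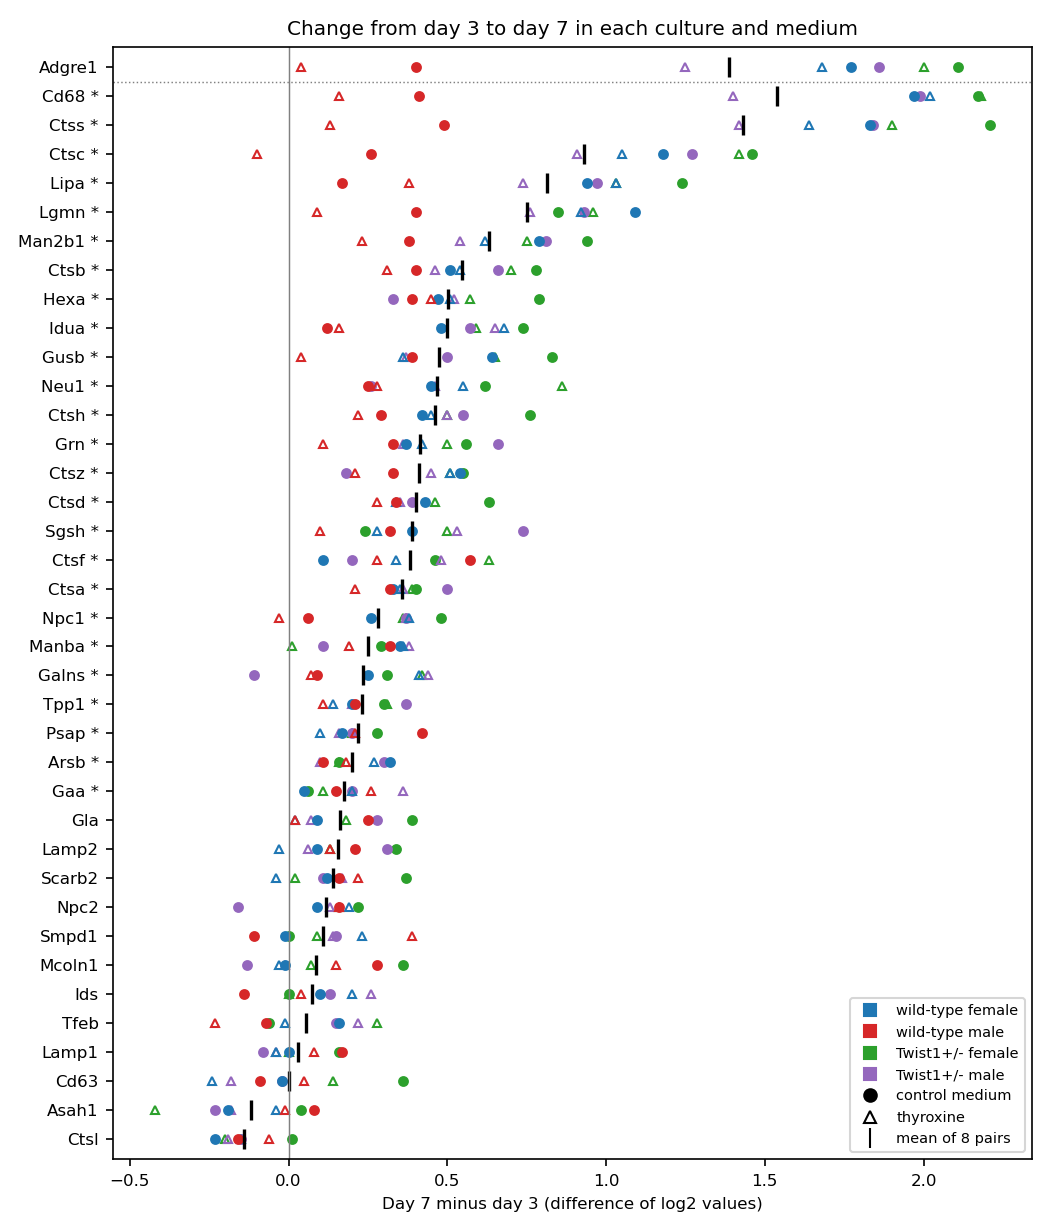
Change from 3 to 7 days (log2) of each of the 37 lysosomal genes, with Adgre1, in each of the 8 pairs of arrays (colour for culture, circles for control medium, triangles for thyroxine, bars for the mean), ordered by mean change, with * for genes past the threshold. Cd68 and Ctss stand far to the right in 6 pairs, and both pairs of the wild-type male culture lie near 0 for them, at 0.13 to 0.49.

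Among the proteases, 10 of 11 rose, with a median change of 0.41. Cathepsin S (Ctss), a cysteine protease that trims the invariant chain in antigen-presenting cells, had levels of 8.59 to 9.14 with a median of 8.78 in the 6 arrays of the other cultures at 3 days, and 10.43 to 10.89 with a median of 10.58 at 7 days. In the wild-type male culture it was already at 10.52 in control medium and 10.51 with thyroxine at 3 days, and at 11.01 and 10.64 at 7 days. The days were far apart in 3 of the cultures and close together in the fourth. Over all pairs the change was 1.43 ± 0.17 (SE, limma adjusted p = 0.000664), and it was positive in 8 of 8 pairs.

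Cathepsin C (Ctsc), which activates serine proteases of immune cell granules, had levels of 8.18 to 8.89 at 3 days and 9.60 to 9.85 at 7 days in the other cultures. The wild-type male culture had 9.59 and 9.55 on the earlier day and 9.85 and 9.45 on the later, so it was higher in the control pair and lower in the thyroxine pair. The change over all pairs was 0.93 ± 0.13 (SE, limma adjusted p = 0.00105), with 7 of 8 pairs higher. Legumain (Lgmn), an asparaginyl endopeptidase, rose by 0.75 ± 0.10 over all pairs (SE, limma adjusted p = 0.000835). Its levels were 9.29 to 9.59 at 3 days and 10.14 to 10.45 at 7 days in the other cultures. The wild-type male culture had 9.89 and 9.66, then 10.29 and 9.75, so the days overlapped.

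Cathepsin B (Ctsb), a cysteine protease made in most cells, showed a smaller but steadier change. Its levels were 12.27 to 12.47 with a median of 12.41 at 3 days and 12.93 to 13.10 with a median of 12.96 at 7 days in the other cultures, and 12.73 and 12.71, then 13.13 and 13.02, in the wild-type male culture. Every array of 7 days lay above every array of 3 days. The change was 0.54 ± 0.06 (SE, limma adjusted p = 0.000475), higher in 8 of 8 pairs. Cathepsin D (Ctsd), an aspartic protease, went from 12.02 to 12.29 over the 8 arrays at 3 days to 12.48 to 12.65 at 7 days, again without overlap, a rise of 0.40 ± 0.05 (SE, limma adjusted p = 0.000868).

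Of the remaining proteases, Ctsh, Ctsz and Ctsa also separated the days in all arrays, and they rose by 0.46, 0.41 and 0.36 (limma adjusted p 0.000829 to 0.00157). Ctsf rose by 0.38 and Tpp1, the tripeptidyl peptidase lost in a childhood neuronal ceroid lipofuscinosis, by 0.23. Cathepsin L (Ctsl), a cysteine protease found in many cell types, was the exception. It had levels of 10.33 to 10.63 in the other cultures at 3 days and 10.21 to 10.48 at 7 days, with 10.38 in both wild-type male arrays at 3 days and 10.22 and 10.32 at 7 days. Its change was -0.14 ± 0.05 (SE, limma adjusted p = 0.0794), with 1 of 8 pairs higher.

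**Figure D2:**
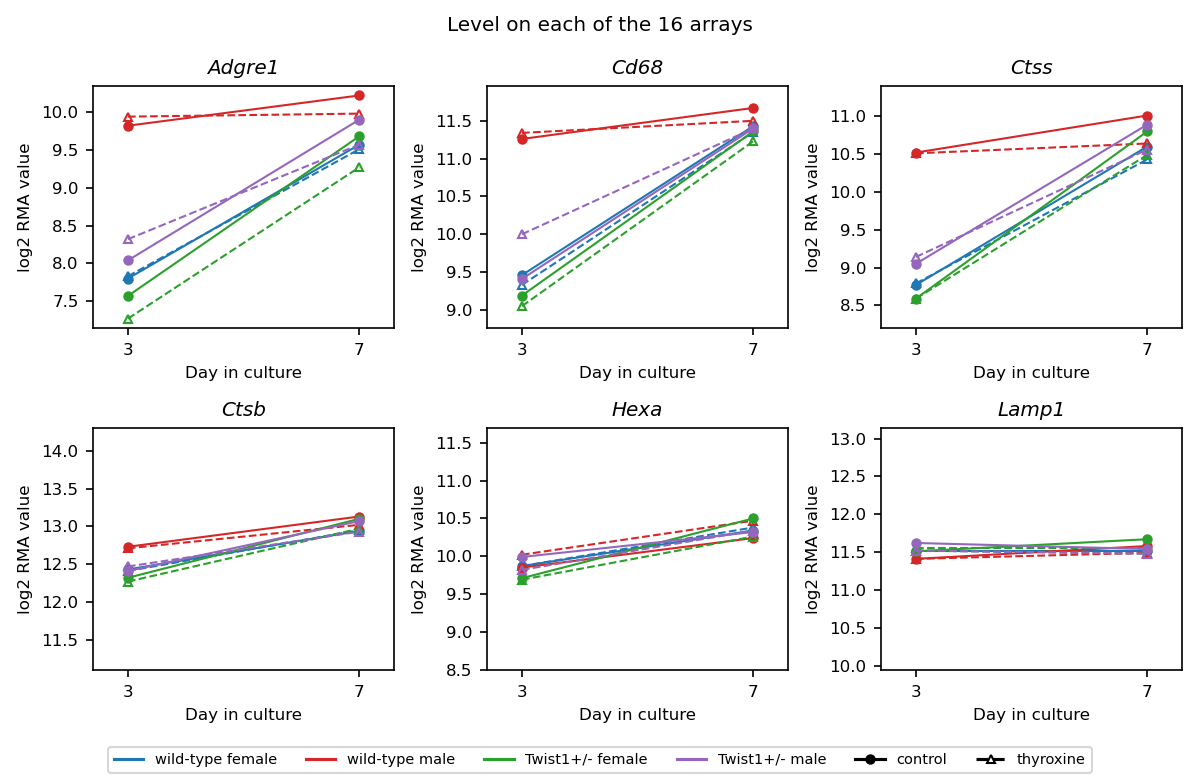
Log2 levels of selected genes in all 16 arrays at 3 and 7 days, with lines joining the arrays of a culture and medium. For Cd68 and Ctss the wild-type male culture starts near the 7-day level of the others, while for Ctsb and Hexa all lines rise and for Lamp1 all 16 arrays lie between 11.41 and 11.67.

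Among the enzymes that remove sugars and sulfates, 10 of 12 rose, with a median change of 0.32. Lysosomal alpha-mannosidase (Man2b1), which cleaves mannose from glycoproteins, had levels of 8.07 to 8.30 at 3 days and 8.83 to 9.01 at 7 days in the other cultures. The wild-type male culture was at 8.84 and 8.61 at 3 days and 9.22 and 8.84 at 7 days, higher than the others at 3 days. The change over all pairs was 0.63 ± 0.07 (SE, limma adjusted p = 0.000551). The alpha subunit of beta-hexosaminidase (Hexa), which degrades GM2 ganglioside, was at 9.69 to 9.99 at 3 days and 10.26 to 10.50 at 7 days in the other cultures. It was at 9.85 and 10.02, then 10.24 and 10.47, in the wild-type male culture. Every array of 7 days was above every array of 3 days, and the change was 0.50 ± 0.06 (SE, limma adjusted p = 0.000679).

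Idua (alpha-L-iduronidase), Gusb (beta-glucuronidase) and Sgsh (N-sulfoglucosamine sulfohydrolase), which act in the breakdown of glycosaminoglycans, rose by 0.50, 0.47 and 0.39 (limma adjusted p 0.00111 to 0.00277). Neu1, the lysosomal sialidase, rose by 0.47. Cathepsin A, the protective protein that holds Neu1 in a complex, is described with the proteases above. Manba, Galns, Arsb and Gaa rose by 0.17 to 0.25. Gla and the sulfatase Ids did not pass, at 0.16 and 0.07.

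Of the 6 genes for lipid handling, 3 rose. Lysosomal acid lipase (Lipa), which releases cholesterol from its esters, was at 9.63 to 9.93 at 3 days and 10.67 to 10.90 at 7 days in the other cultures. In the wild-type male culture it was at 10.78 and 10.84, then 10.95 and 11.22, close to or above the 7-day arrays of the others throughout. Its change was 0.81 ± 0.10 (SE, limma adjusted p = 0.000664), higher in 8 of 8 pairs. Npc1, the membrane protein that exports cholesterol from lysosomes, rose by 0.28 and Psap, the precursor of the saposins that present lipids to hydrolases, by 0.22. Npc2, the soluble partner of Npc1 in cholesterol export, changed by 0.12, Smpd1 by 0.11 and the acid ceramidase Asah1 by -0.12. None of these passed the threshold (limma adjusted p 0.183 to 0.209).

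Of the 6 membrane proteins, 1 rose, against 10.9% of all genes tested, so this count is near that share. Cd68, a heavily glycosylated membrane protein used as a macrophage marker, was at 9.19 and 9.05 in the Twist1+/- female culture at 3 days, in control medium and with thyroxine, at 9.41 and 10.00 in the Twist1+/- male culture and at 9.46 and 9.33 in the wild-type female culture. At 7 days it was at 11.36 and 11.23, 11.40 and 11.40, and 11.43 and 11.35 in the same order. The wild-type male culture had 11.26 and 11.34 on the earlier day and 11.67 and 11.50 on the later. Only the 6 arrays of the other cultures at 3 days were low, and the change over all pairs was 1.54 ± 0.20 (SE, limma adjusted p = 0.000854). With the wild-type male culture left out the Cd68 change was 1.96 ± 0.09 (SE, limma adjusted p = 5.96e-08). In the same setting Ctss changed by 1.79 and Ctsc by 1.19.

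The other membrane proteins changed less than Cd68. Lamp1 was at 11.51 to 11.62 in the other cultures at 3 days and 11.48 to 11.67 at 7 days, with 11.41 in both wild-type male arrays at 3 days and 11.58 and 11.49 at 7 days. The days overlapped, and its change was 0.03 ± 0.06 (SE, limma adjusted p = 0.749), with a 95% interval of -0.09 to 0.15. It was -0.01 (adjusted p = 0.973) without the wild-type male culture. Lamp2, its paralog with a role in autophagy, was at 10.40 to 10.55 in the other cultures at 3 days and 10.51 to 10.79 at 7 days, with 10.22 and 10.21, then 10.43 and 10.34, in the wild-type male culture. It changed by 0.15 ± 0.05 (SE, limma adjusted p = 0.0589). Scarb2, the receptor that carries beta-glucocerebrosidase to lysosomes, changed by 0.14, Mcoln1 by 0.09 and the tetraspanin Cd63 by 0.00, none past the threshold.

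Progranulin (Grn), a secreted protein that is taken to lysosomes and processed there, rose by 0.41 ± 0.06 (SE, limma adjusted p = 0.000913), from 11.36 to 11.64 over the 8 arrays at 3 days to 11.64 to 12.07 at 7 days. Tfeb lay at 3.73 to 4.12 over the arrays of 3 days and 3.76 to 4.12 at 7 days. These values are close to the array medians of 3.73 to 3.86, where differences are compressed, and its change was 0.06 ± 0.09 (SE, limma adjusted p = 0.723).

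Counted by pairs, 23 of the 37 genes were higher at 7 days in 8 of 8 pairs, against 6.08% of all genes tested. For 7 of the 37 the lowest array of 7 days was above the highest of 3 days, against 0.974% of all genes. These 7 were Ctsa, Ctsb, Ctsd, Ctsh, Ctsz, Hexa and Idua, so they do not include Cd68, Ctss or Lipa, whose wild-type male arrays at 3 days reach into the range of 7 days. Of the genes with CACGTG in the promoter, 6 of 10 tested rose with time, with a median change of 0.27. Of those without it 15 of 22 rose, with a median of 0.33. With and without TCACGTGA these were 2 of 4 (median 0.26) and 19 of 28 (0.32). For GAGGAAGT they were 3 of 4 (0.70) and 18 of 28 (0.24), and for TGACTCA 3 of 3 (0.47) and 18 of 29 (0.25). The groups with a motif are small, and these differences were not tested.

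Adgre1, an adhesion receptor widely used to mark mouse macrophages, was the yardstick for these changes. Its levels were 7.27 to 8.32 with a median of 7.82 at 3 days and 9.27 to 9.90 with a median of 9.57 at 7 days in the other cultures. In the wild-type male culture it was at 9.82 and 9.94 at 3 days and 10.22 and 9.98 at 7 days. It rose by 1.39 ± 0.19 (SE, limma adjusted p = 0.000854), and all 18 macrophage markers rose, with a median of 1.14. With the Adgre1 level of the same array subtracted from each gene, 32 of the 37 lysosomal genes changed less than Adgre1, as did 97.3% of all genes tested (97.4% called in either direction), so this count does not set the lysosomal genes apart.

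For 5 genes no difference from Adgre1 was called. Their differences from the change of Adgre1 were 0.15 ± 0.33 (SE) for Cd68, 0.04 ± 0.33 for Ctss, -0.46 for Ctsc, -0.58 for Lipa and -0.64 for Lgmn (limma adjusted p 0.0566 to 0.897). For Ctsb the difference was -0.84 ± 0.33 (SE, limma adjusted p = 0.0108), for Grn -0.98 (adjusted p = 0.00341), for Ctsd -0.99 (adjusted p = 0.00297) and for Lamp2 -1.23 (adjusted p = 0.000258). Tfeb, Lamp1 and Ctsl differed by -1.33, -1.36 and -1.53. All genes share the Adgre1 values in this fit, so their differences from it are not independent. The SE of all 37 genes lay between 0.329 and 0.345. It follows the spread of Adgre1 and not that of each gene's own difference, so a missing call does not show an equal change. The change was smaller in size than that of Adgre1 in 0 of 8 pairs for Cd68 and 3 for Ctss. That number was 6 for Lgmn and 7 for both Ctsc and Lipa.

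The size of the change in each pair is given beside that of the marker. Adgre1 rose by 2.11 and 2.00 in the control and thyroxine pairs of the Twist1+/- female culture, 1.86 and 1.25 in the Twist1+/- male culture and 1.77 and 1.68 in the wild-type female culture, but by 0.40 and 0.04 in the wild-type male culture. The medians of the 37 lysosomal genes in the same order were 0.39 and 0.39, 0.30 and 0.36, 0.32 and 0.34, and 0.25 and 0.16. The median of the list was thus above 0 also in the pairs where Adgre1 changed least, and 29 of the 37 were higher at 7 days in both wild-type male pairs, against 28% of all genes tested.

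Genes differed in how much of their change the wild-type male culture showed. Its change was set as a percentage of the mean change in the other cultures, for genes where that mean was at least 0.2 in size. It was lowest for Npc1 and Ctsc, at 4.1% and 6.6%, and was 12.4% for Adgre1, 14.6% for Cd68, 17.2% for Ctss and 22.6% for Idua. Lgmn, Lipa and Galns had 26.7% to 27.9%, and Gusb, Man2b1, Grn, Sgsh, Ctsh and Neu1 had 38.5% to 49.7%. Ctsb, Ctsz, Tpp1, Arsb, Ctsa, Ctsd and Hexa had 58.4% to 79.0%, Manba 102.0% and Ctsf 114.9%. These percentages describe 2 pairs against 6 and were not tested.

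The same culture began at another level for some of the genes. At 3 days it was above the mean of the other 6 arrays by 2.08 for Adgre1, 1.89 for Cd68, 1.69 for Ctss, 1.03 for Ctsc and 0.99 for Lipa, while Ctsf and Gaa lay below it, at -0.69 and -0.63. In all, 21 of the 37 genes were above the others at 3 days and 14 at 7 days. The share of all genes was not computed for these counts, so they do not set the lysosomal genes apart. At 7 days the gap was 0.22 for Cd68, 0.20 for Ctss and -0.10 for Ctsc. The part of the macrophage and stromal marker levels in these gaps was not tested.

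**Figure D3:**
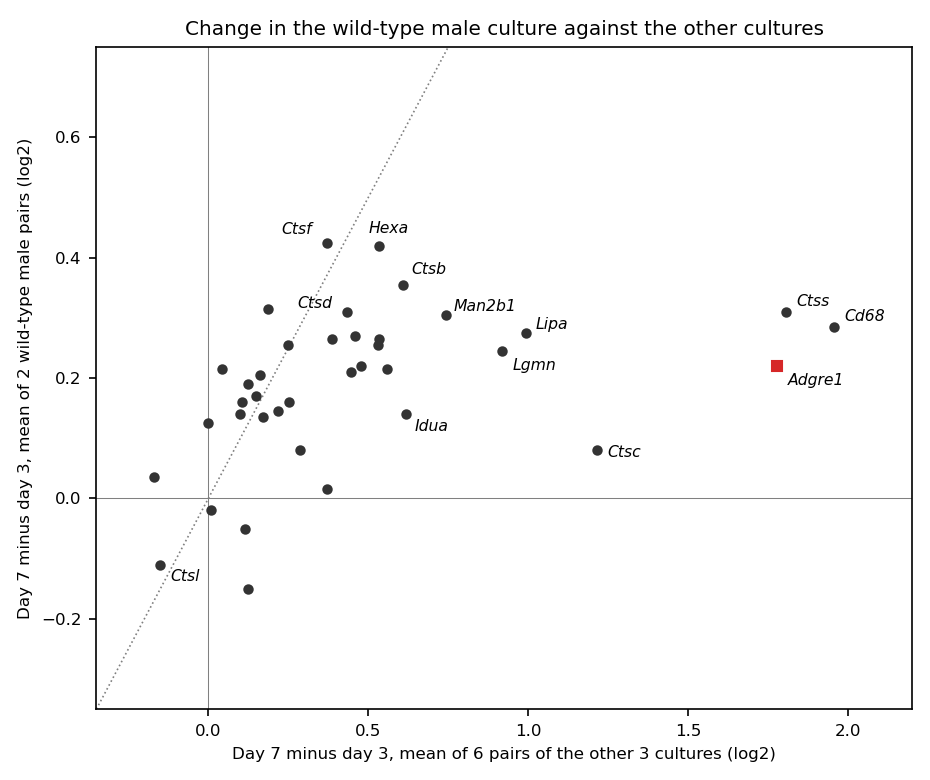
Mean change from 3 to 7 days (log2) of each lysosomal gene and Adgre1 in the wild-type male culture (vertical axis, 2 pairs) against the other 3 cultures (horizontal axis, 6 pairs), with a dotted line for equal change and unequal scales on the axes. Adgre1, Cd68, Ctss and Ctsc lie far below the line, and Hexa, Ctsd and Ctsf lie near it.

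Osteoclasts are another cell type of bone that is rich in lysosomal proteases, so their markers were read beside these results. The mean of 9 osteoclast markers stayed at 4.53 to 4.86 over all arrays, a mean that includes markers below the minimum brightness. The levels of the others differed, with means of 7.70 for Ctsk, 5.73 for Itgb3, 5.39 for Acp5, 4.93 for Mmp9 and 4.17 for Ocstamp. Mmp9 fell by 0.39 (limma adjusted p = 0.00781), Ctsk, the collagen-degrading cathepsin of osteoclasts, changed by -0.18 (adjusted p = 0.13) and Acp5 by -0.12 (adjusted p = 0.5), while Dcstamp, Calcr, Oscar and Atp6v0d2 were below the minimum brightness. Of 12 stromal and osteoblast markers tested, 3 fell, 0 rose and 9 were not called, against 9.8% of all genes falling, and their median change was -0.03. The 3 were Alpl, which fell by 0.40, Col1a1, which fell by 0.20, and Pdgfrb, which fell by 0.17 (limma adjusted p 0.0167 to 0.0435), and the highest change in the list was 0.21.

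Other genes of the lysosomal system moved to different degrees over the same days, on which 10.9% of all genes tested rose and 9.8% fell. Of 19 genes in a list of other hydrolases and proteins linked to lysosomal storage disease, 12 rose, among them Cln3, which encodes a lysosomal membrane protein and no hydrolase, by 1.04, Naglu by 0.71, Gm2a, the activator protein of Hexa, by 0.64 and Pla2g15 by 0.58 (limma adjusted p 0.00032 to 0.00118). Of 16 other lysosomal membrane proteins 7 rose, including Laptm5 by 0.93, which is also in the macrophage list, Gpnmb by 0.65, the sialic acid exporter Slc17a5 by 0.54 and the cystine exporter Ctns by 0.42. Of 17 subunits of the V-ATPase, the proton pump that acidifies the lysosome, 5 rose, with Tcirg1 at 0.52, Atp6v0a1 at 0.34, Atp6v0b at 0.28 and Atp6v0e at 0.21. Of 10 genes of mannose 6-phosphate sorting only Nagpa, the uncovering enzyme, rose, by 0.45 (adjusted p = 0.00208). That count is near the share of all genes.

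In a list of 20 genes around TFEB and its upstream kinase, 4 rose and 2 fell. Of all genes tested, 10.9% rose and 9.8% fell, so the count of falls is near that share. Fnip2 rose by 0.73, Mitf, a relative of TFEB, by 0.61, Rragd by 0.39 and Map1lc3b by 0.26, while Mtor fell by 0.31 and Wipi1 fell by 0.29 (limma adjusted p 0.000743 to 0.0432). The median of that list was 0.06. The median was 0.32 for the other hydrolases, 0.17 for the other membrane proteins and 0.09 for the V-ATPase.

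Within genotypes the count of calls differed. Both genotypes share an estimate of the spread per gene in this fit, so the SE and calls of each depend on the arrays of the other. In Twist1+/- cells 20 of the 37 genes rose from 3 to 7 days and 0 fell, against 10.5% of all genes rising and 6.35% falling (16.9% in all), with a median of 0.40. Cd68 rose by 1.94 ± 0.29 (SE, limma adjusted p = 0.00219), Ctss by 1.84 ± 0.24 (adjusted p = 0.00159), Ctsc by 1.26 and Lipa by 0.99, followed by Lgmn, Man2b1, Ctsb, Idua, Gusb and Ctsh at 0.88 to 0.58. Lamp1 changed by 0.01, Lamp2 by 0.21 and Ctsl by -0.13, none of them past the threshold. Without the Twist1+/- control pairs, which leaves 1 pair for each sex, 0 genes were called in the list or among all genes, and Cd68 changed by 1.79 (adjusted p = 0.083).

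In wild-type cells 3 of the 37 genes rose and 0 fell, against 0.453% of all genes rising and 0.483% falling (0.937% in all), although the median change of 0.27 was close to that over all pairs. Ctsb rose by 0.44 ± 0.08 (SE, limma adjusted p = 0.0413), Hexa by 0.46 ± 0.09 (adjusted p = 0.0431) and Man2b1 by 0.51 ± 0.10 (adjusted p = 0.0482). Cd68 and Ctss changed by 1.14 ± 0.29 and 1.02 ± 0.24 but did not pass (adjusted p = 0.0839 and 0.0735). The Cd68 change was 1.97 and 2.02 in the female pairs and 0.41 and 0.16 in the male pairs. Lipa, Ctsd and Lgmn changed by 0.63, 0.35 and 0.62 (adjusted p 0.0641 to 0.0667), and Ctsl, Cd63 and Asah1 by -0.15, -0.07 and -0.04. Without the wild-type male culture 15 of the 37 rose and 0 fell, against 5.81% of all genes rising and 6.04% falling, and the change then rests on the wild-type female culture alone. The 3 calls did not hold under several other settings, such as without either wild-type female pair or without any 1 of the 4 Twist1+/- pairs, where 0 were called.

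The difference between the genotypes' changes was tested directly. Of the 37 genes, 0 differed (limma, 0% of all genes called, with 2 of the 37 and 1273 of all genes at an unadjusted p under 0.05). The change was larger in Twist1+/- cells by 0.82 ± 0.34 for Ctss (SE, adjusted p = 0.519), 0.67 for Ctsc and 0.80 ± 0.41 for Cd68 (adjusted p = 0.564, 95% interval -0.12 to 1.71), and by 0.83 for Adgre1 (adjusted p = 0.524). The differences were -0.16 for Asah1 and -0.06 for Npc2. Without the wild-type male culture the difference was -0.06 for Cd68, 0.11 for Ctss and 0.15 for Ctsc, so the size of these differences rests on that culture.

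Thyroxine is the main circulating product of the thyroid gland, and the study asked how it acts on suture cells of both genotypes. Arrays of a culture and day with and without thyroxine formed 8 pairs, over which 0 of the 37 lysosomal genes were called (limma, 0.0966% of all genes, 0.0818% higher and 0.0149% lower, with 3 of the 37 and 825 of all genes at an unadjusted p under 0.05). The differences ran from -0.15 to 0.12, with a median of -0.03, and the 95% intervals of all 37 lay within -0.27 to 0.22. These intervals leave room for changes of that size and not for changes like those over time in Cd68 or Ctss.

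Among genes with higher values the smallest p for thyroxine over all pairs were those of Npc2 at 0.12 (limma adjusted p = 0.767), Sgsh at 0.08 and Manba at 0.05. Among genes with lower values they were those of Asah1 at -0.15 (adjusted p = 0.765), Ctss at -0.14 ± 0.05 (SE, adjusted p = 0.732) and Man2b1 at -0.11 (adjusted p = 0.814). Cd68 differed by 0.00 ± 0.07 (SE), Ctsb by -0.05, Ctsd by -0.03, Lamp1 by -0.05, Lamp2 by -0.07, Ctsl by 0.04, Grn by -0.06 and Tfeb by -0.02. Adgre1 differed by -0.11 ± 0.06 (SE, adjusted p = 0.829).

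**Figure D4:**
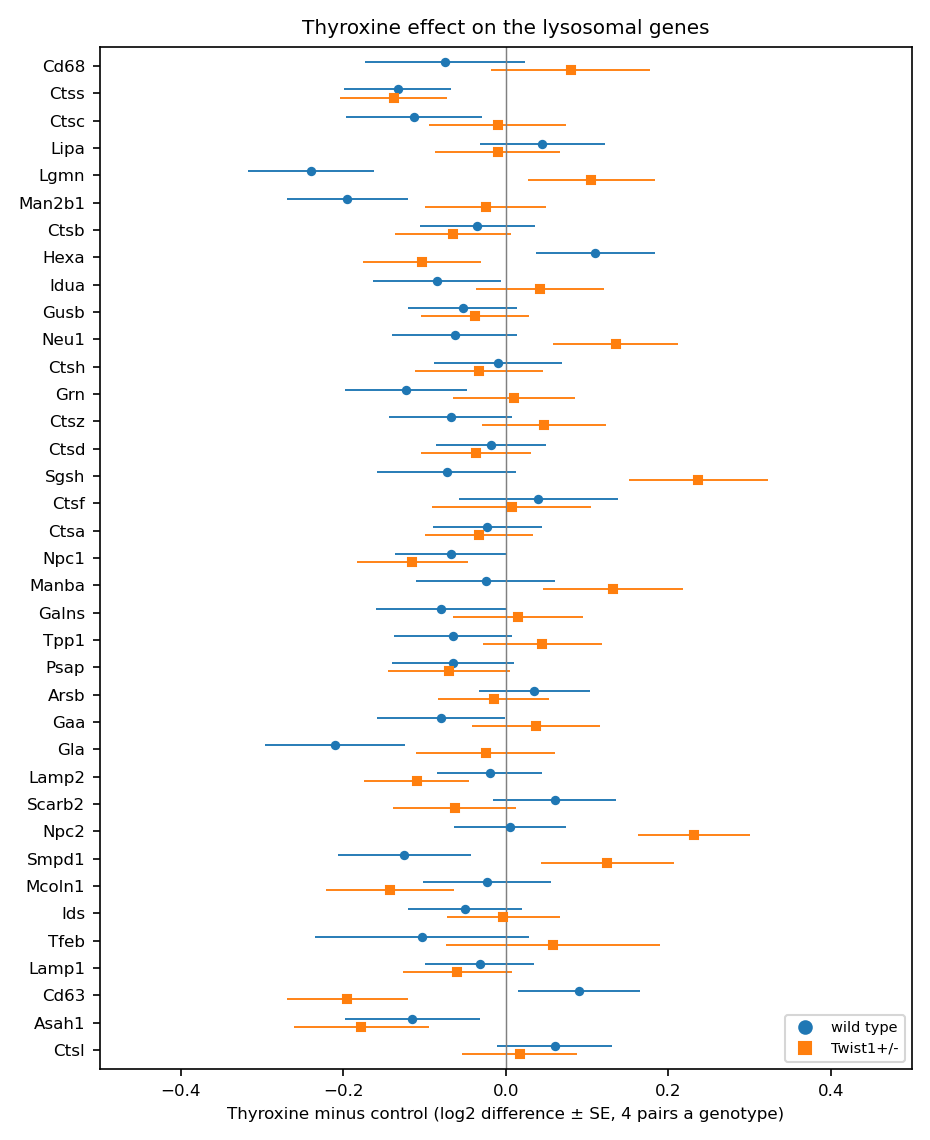
Thyroxine minus control (log2) for each of the 37 lysosomal genes. Circles mark the fitted mean over the 4 wild-type pairs and squares that over the 4 Twist1+/- pairs. Bars show the SE, from a spread per gene that both genotypes share in the fit. The means lie between -0.24 (Lgmn, wild type) and 0.24 (Sgsh, Twist1+/-), and none passed the threshold.

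In wild-type cells 0 of the 37 were called for thyroxine (limma, 0.0149% of all genes, 0.00743% in each direction, 3 of the 37 at an unadjusted p under 0.05), with Hexa at 0.11, Cd63 at 0.09, Lgmn at -0.24 (adjusted p = 0.84), Gla at -0.21 and Man2b1 at -0.20. In Twist1+/- cells 0 were called (limma, 0.201% of all genes, 0.164% higher and 0.0372% lower, 3 of the 37 at an unadjusted p under 0.05), with Sgsh at 0.24 (adjusted p = 0.376), Npc2 at 0.23 (adjusted p = 0.309), Cd63 at -0.19, Asah1 at -0.18 and Ctss at -0.14. Npc2 was higher with thyroxine in all 4 Twist1+/- pairs, by 0.22, 0.16, 0.13 and 0.42, and differed by -0.02, 0.08, -0.02 and -0.02 in the wild-type pairs.

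The difference of the thyroxine effect between genotypes was called for 0 of the 37 (limma, 0.0595% of all genes, 5 of the 37 at an unadjusted p under 0.05). It was 0.34 ± 0.11 for Lgmn (SE, adjusted p = 0.403), 0.31 for Sgsh (adjusted p = 0.476) and 0.23 for Npc2 (adjusted p = 0.498), and -0.28 for Cd63, -0.21 for Hexa and -0.12 for Scarb2. Between 7 and 3 days the thyroxine effect differed in 0 of the 37 (limma, 0.00743% of all genes, 2 of the 37 at an unadjusted p under 0.05), with Ctss at -0.32 ± 0.09 (SE, adjusted p = 0.889), Gusb at -0.23 (adjusted p = 0.896) and Man2b1 at -0.20. Adgre1 had a difference of -0.29 (adjusted p = 0.896) in the same comparison.

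Between genotypes in control medium, over both days, 0 of the 37 genes were called (limma with the culture as a random block, 0% of all genes, 2 of the 37 and 639 of all genes at an unadjusted p under 0.05). Twist1+/- minus wild type was -0.28 ± 0.13 for Man2b1 (SE, adjusted p = 0.889), -0.22 for Galns and -0.17 for Npc2, and 0.25 for Cd63, 0.22 for Scarb2 and 0.18 for Lamp2. Cd68 differed by -0.61 ± 0.36 (SE, adjusted p = 0.889), Ctss by -0.39 ± 0.30 and Adgre1 by -0.56 ± 0.33 (adjusted p = 0.889). With that wild-type male culture left out these were -0.28 ± 0.17, 0.00 ± 0.12 and -0.14 ± 0.16 (SE, limma adjusted p 0.58 to 0.998), Man2b1 was -0.10, Lamp2 0.07 and Scarb2 -0.12. In that setting 0 of the 37 genes were called, with 0 of them at an unadjusted p under 0.05, against 0.453% of all genes higher and 0.587% lower, and wild type then rests on a single culture. Ctsb, Ctsd, Grn and Lamp1 differed by -0.08, -0.06, -0.12 and 0.08. There were 2 cultures of each genotype, and 1 of the wild-type cultures stood apart. The outermost bounds of the 95% intervals of the 37 genes over all cultures were -1.40 and 0.68. The SE ran from 0.085 to 0.359, so the precision differed between genes. A difference inside the interval of a gene could have been missed.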

How the data were processed

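RNA of 16 samples was measured on an Affymetrix whole-transcript array, with 100 ng of total RNA per array per the labels' protocols. The authors deposited a log2 value for each probe set. Per the submitters' processing notes, it was made with RMA in Affymetrix Expression Console. Software versions, the genome build and any pooling of wells are not stated there. RMA sets all arrays to one distribution, so a shift of all genes would not be seen, and it compresses differences near background.

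Of 41345 probe sets, 23521 had 1 gene symbol in the platform annotation, 1814 several and 16010 none. Entrez identifiers matched 23328 of the named ones, and 0 symbols changed. Of 22180 genes the brightest probe set was kept, and 13453 passed the minimum mean of 3.905 (percentile 40) and were tested with limma 3.58.1 and statmod 1.5.0 in R 4.3.3 (eBayes with trend, two-sided, Benjamini-Hochberg over all genes, threshold 0.05). Day was fitted with the culture and medium as a fixed block, thyroxine with the culture and day as a fixed block, both from the labels, and genotype with 8 group means, sex and the culture as a random block (within-culture correlation 0.202). All arrays in a fit shared an estimate of the spread per gene, also for effects within a genotype. The fits were tested on simulated data.

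Members and gene lists were chosen with earlier results of these data known. Named genes were the members past the threshold, up to 10 per direction by size of change, with the 3 of smallest p in each direction where fewer than 5 passed, always Ctss, Cd68, Ctsl, Ctsd, Ctsb, Lamp1, Lamp2, Grn and Tfeb, and up to 4 genes per pathway list. Others were named to account for all members. Alternatives covered the variance trend, the filter, the probe sets, centring, the blocks and leaving out pairs or cultures.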

Additional observations from a re-analysis of the deposited data

Results flagged for a closer look

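Lgmn, the asparaginyl endopeptidase, was singled out because its thyroxine pairs moved in opposite directions in the genotypes. The thyroxine minus control difference (log2) was -0.01, -0.18, -0.23 and -0.54 in the 4 wild-type pairs and 0.01, 0.12, 0.23 and 0.06 in the 4 Twist1+/- pairs, so the mean was higher in Twist1+/- cells by 0.345. In each genotype 1 pair lay within 0.01 of 0. The test of the difference in the limma fit gave an adjusted p of 0.403. Without the wild-type male culture, which holds the lowest pair, the difference was 0.20 (adjusted p = 0.999). Groups of 2 arrays are too small to look for single arrays that stand apart.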

How the results depend on the processing

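The count of 25 lysosomal genes rising with time over all pairs ran from 18 (media averaged within a culture) to 27 (filter at the 60th percentile), and was 22 with no replicate block, 23 without the wild-type male culture, 19 without the Twist1+/- control pairs and 20 to 24 when each pair was left out in turn. The 3 calls in wild-type cells were the least stable. They became 0 without the variance trend, with no replicate block, with the culture as a random block, with media averaged and without the Twist1+/- control pairs, 1 with no filter and 15 without the wild-type male culture. With single pairs left out they ran from 0 to 15, with 15 without the wild-type male thyroxine pair and 5 without the wild-type male control pair. The 20 calls in Twist1+/- cells became 0 without the Twist1+/- control pairs and ran from 14 to 20 with single pairs left out. For thyroxine in Twist1+/- cells the count of 0 higher became 1 with the mean of all probe sets of a gene, and 0 to 1 higher and 0 to 1 lower with single pairs left out, from Sgsh (0.36, limma adjusted p = 0.039) and Asah1 (-0.31, adjusted p = 0.0422) without the Twist1+/- female 3-day pair. The cause was not tested. The share of all genes called also moved with the setting, as from 10.9% to 12% rising over all pairs without the wild-type male culture. That share is not given here for each setting, so these ranges do not set the lysosomal genes apart.

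Among the genes named in a comparison, signs turned in 6 cases, none of them called. Without the wild-type male culture these were Lamp1 over time (-0.005), Cd68 in the difference of the day changes (-0.06) and Scarb2 between genotypes (-0.121). The others were Asah1 over time in wild type (0.028 without the wild-type female control pair, -0.107 to 0.028 over single pairs left out), Npc2 in the difference of the day changes (0.033 without the Twist1+/- male control pair, -0.157 to 0.033 over single pairs left out) and Ctss for thyroxine in Twist1+/- cells (0.045 without the 7-day arrays). Over all 37 genes more signs turned in the comparisons without calls. Without the wild-type male culture 27 of the 37 kept their sign between genotypes, 29 in the difference of the day changes and 26 for thyroxine over all pairs, and 19 did for thyroxine in Twist1+/- cells without the 7-day arrays. For the day change over all pairs 35 to 37 kept it in every setting (36 genes were tested with the filter at the 60th percentile). Tfeb lay too close to background for its change to be read.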
